A study of Mus musculus with 15 samples.

Results

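The loss of a receptor was set directly against the loss of its coreceptor. The receptor is Frizzled4 (Fz4, gene Fzd4) and the coreceptor is Lrp5, and both were measured in endothelial cells of the adult mouse retina. The comparison rests on 6 of the 15 arrays of the series, chosen by their titles: 3 arrays of Fz4-/- endothelium (Fz4 KO) and 3 of Lrp5-/- endothelium (Lrp5 KO). A further 3 arrays lacked the ligand Norrin (Norrin KO, labelled Norrin-) and 6 came from wild-type mice, and here they serve as reference levels and in the estimate of the spread. Every group was labelled adult, of mixed gender and of a C57Bl6/129 mixed background. The cells were isolated with beads that carry an antibody to PECAM, with RNA of 5 to 10 mice combined for every array. Nothing in the labels says from which litters or on which days the mice came, so a p-value here reflects how pools vary, not how single mice vary. All values are log2 signals, on which a difference of 1 is a 2-fold difference, and differences are Fz4 KO minus Lrp5 KO. For the 6 wild-type arrays the lowest, median and highest signals are given.

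Norrin is a secreted protein of Müller glia that binds Frizzled4 on endothelium. Frizzled4 then acts together with Lrp5 or its relative Lrp6 and with the tetraspanin Tspan12 to stabilize beta-catenin, which enters the nucleus and works with transcription factors of the TCF and LEF family. In the retina this pathway drives the growth of the deeper vessel layers and keeps endothelium in its barrier state, with tight junctions, many carriers and few fenestrae. Lrp6 can stand in for Lrp5 in part, whereas no other Frizzled is known to bind Norrin with like strength. The direct comparison asks how far the endothelium of the 2 deletions differs.

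The purified cells carried their defining markers in every group. The summed linear signal of 20 pan-endothelial genes was 78808 to 81151 in Fz4 KO, 73994 to 79633 in Lrp5 KO and 76706 to 85058 in wild type, and none of the 20 passed between the mutants (median 0.08, every 95% interval within 2-fold). Arrays of Fz4 KO correlated with each other at 0.985 to 0.992, arrays of Lrp5 KO at 0.972 to 0.991, and Fz4 KO with Lrp5 KO arrays at 0.954 to 0.991. Lrp5 KO 1 stood apart on the second principal component, at 77.4, with wild type 4 at 34.0 and Lrp5 KO 3 at 29.2. The other arrays lay between −29.5 (wild type 5) and 15.7 (Fz4 KO 2). Sex-linked transcripts moved with the groups despite the common label. Xist, made by the inactive X chromosome, was at 11.42, 11.75 and 11.88 in Fz4 KO and at 5.90, 4.76 and 12.21 in Lrp5 KO. The Y-linked gene Eif2s3y was at 9.57, 9.63 and 3.25 in Fz4 KO and at 10.11, 10.48 and 3.21 in Lrp5 KO. Only the pair Fz4 KO 3 and Lrp5 KO 3 shared one state, Xist high and Eif2s3y near background, and values are given for that pair as well. By these transcripts, and by the bacterial bioB spike, Fz4 KO 1 to 3 resembled wild type 1 to 3, and Lrp5 KO 1 to 3 resembled wild type 4 to 6. The deviations of such matched arrays correlated at 0.28 to 0.65, against −0.57 to 0.25 for the other combinations. The labels name no such batches. Genotype and the source of these patterns cannot be told apart on the 6 arrays alone, so differences relative to the matched wild-type arrays are plotted for the called genes and given in the text for the barrier genes, for gene list medians and for the other genes where they depart most from the main values.

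**Figure D1:**
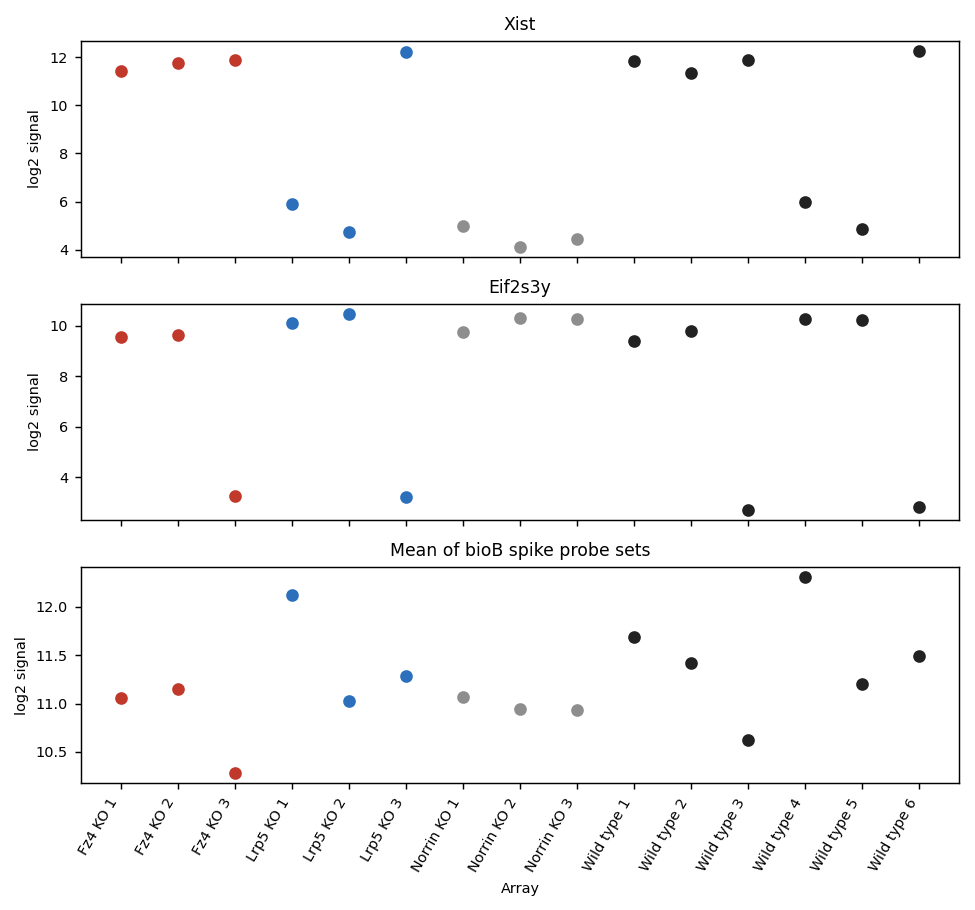
Log2 signal (y axis) of Xist, of Eif2s3y and of the mean of the bioB spike probe sets on each of the 15 arrays (x axis; points are single arrays, coloured by group). High Xist signals appear on 3 of 3 Fz4 KO and on 1 of 3 Lrp5 KO arrays, and the pattern of Fz4 KO 1 to 3 recurs in wild type 1 to 3, that of Lrp5 KO 1 to 3 in wild type 4 to 6.

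The targeted genes bore out both labels. Fzd4 had log2 signals of 3.98, 4.13 and 4.56 in Fz4 KO and 11.95, 11.90 and 11.82 in Lrp5 KO, against 11.80, 12.17 and 12.27 in wild type. Fz4 KO lay near background and Lrp5 KO in the wild-type range, a difference of −7.67 ± 0.18 (SE), limma adjusted p = 3.36e-12. The other probe sets of Fzd4 gave −4.65 and −1.76. For Lrp5 the arrays read 7.88, 7.57 and 8.15 in Fz4 KO and 4.40, 5.07 and 5.25 in Lrp5 KO, against 7.22, 7.71 and 7.95 in wild type. Here Lrp5 KO was the low group and Fz4 KO overlapped wild type (difference 2.96 ± 0.25 (SE), limma adjusted p = 7.49e-05). Neither deletion was accompanied by a change of the other receptor gene against wild type, with Lrp5 at 0.18 in Fz4 KO (adjusted p = 0.623) and Fzd4 at −0.20 in Lrp5 KO (adjusted p = 0.49). Ndp, which encodes Norrin, was near background on all 6 arrays and did not pass (0.42, adjusted p = 0.568). Lrp6, the possible stand-in for Lrp5, differed by 0.06 with a 95% interval of −0.25 to 0.36, and Tspan12 by 0.12 (−0.32 to 0.55).

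Of 18194 genes tested, 41 (0.225%) passed between the mutants at an adjusted p of 0.05, 29 (0.159%) higher and 12 (0.066%) lower in Fz4 KO. Without Fzd4 and Lrp5 themselves 39 remained. In all 41 the 3 Fz4 KO arrays lay beyond the 3 Lrp5 KO arrays, which was also the case for 10.8% of all genes in the higher and 5.75% in the lower direction. At an unadjusted p under 0.05 there were 1052 genes higher and 616 lower. The median difference over all genes was 0.06, with 59.1% of genes above 0. After quantile normalization of the table the split was 28 higher and 22 lower. For 13074 genes (71.9%) the 95% interval lay within 2-fold, and for 5951 (32.7%) within 1.5-fold. Against wild type the same fit called 1940 genes higher (10.7%) and 1107 lower (6.08%) in Fz4 KO, and 1025 higher (5.63%) and 1322 lower (7.27%) in Lrp5 KO. In simulated data of this design 51 of 100 genes changed 2-fold and 87 of 100 changed 4-fold were called, so a low count does not show that the mutants act alike. The count of calls rests on the estimate of the spread: a fit of the 6 arrays alone called 4 genes higher and 1 lower. With each mutant set against its 3 matched wild-type arrays, 1 was called higher (Lrp5) and 2 lower (Fzd4 and Lsr). With the matched arrays as pairs, only Fzd4 and Ifi202b were called (Ifi202b adjusted p = 0.00879), and Lsr (0.15) and Lrp5 (0.144) were not.

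**Figure D2:**
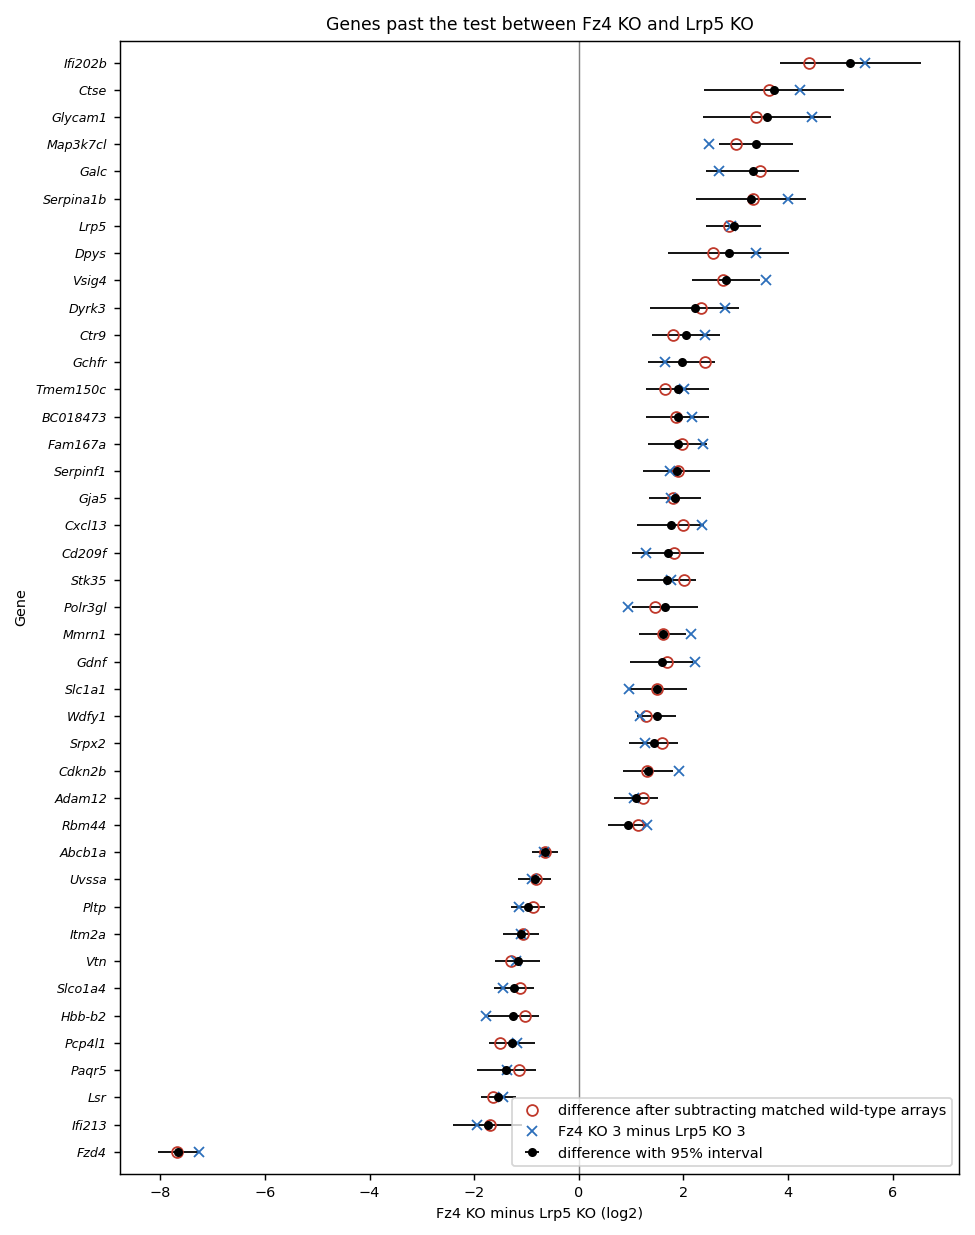
Difference of each of the 41 genes past the test (y axis) on the log2 scale (x axis): black points with bars, limma difference with its 95% interval; open circles, the difference after subtracting the matched wild-type arrays; crosses, the single pair Fz4 KO 3 minus Lrp5 KO 3. Positive values are higher in Fz4 KO, and the circles lie on the same side of 0 as the points for all 41 genes.

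Among genes of the barrier state, 3 were lower in Fz4 KO than in Lrp5 KO: the tricellular junction gene Lsr and the carriers Slco1a4 and Abcb1a. They were 1 of 19 junction genes and 2 of 24 carriers, beside 0.066% of all genes called lower. In each of the 3 the Lrp5 KO arrays lay between Fz4 KO and wild type. Lsr encodes a protein that seals the points where 3 cells meet, and its signals were 7.52, 7.62 and 7.30 in Fz4 KO and 9.004, 9.32 and 8.74 in Lrp5 KO, against 11.36, 11.46 and 11.66 in wild type. No array of one group reached another group, with Fz4 KO lowest and wild type highest (difference −1.54 ± 0.16 (SE), limma adjusted p = 0.000449). The Norrin KO arrays, at 7.60, 7.37 and 7.52, overlapped Fz4 KO and not Lrp5 KO. The other probe set of Lsr was near background in all groups and differed by −0.01.

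Slco1a4, an organic anion carrier of the blood-brain and blood-retina barriers, read 9.86, 10.16 and 9.58 in Fz4 KO and 10.88, 11.39 and 11.02 in Lrp5 KO, with wild type at 12.55, 12.86 and 12.93. The order was the same, Fz4 KO below Lrp5 KO below wild type without overlap (difference −1.23 ± 0.18 (SE), limma adjusted p = 0.0101). The call ended without Fz4 KO 3 (adjusted p = 0.0769). Abcb1a, the drug efflux pump P-glycoprotein, was at 11.32, 11.35 and 11.33 in Fz4 KO and at 11.81, 12.14 and 11.99 in Lrp5 KO, against 13.08, 13.14 and 13.18 in wild type. Its arrays were the most tightly grouped of the 3 genes and again did not overlap (difference −0.64 ± 0.12 (SE), limma adjusted p = 0.0355), and its other probe set gave −0.78. The Abcb1a call ended without any 1 of 11 arrays (all but Lrp5 KO 1, Norrin KO 1 and 2 and wild type 4), with a limma adjusted p of at most 0.184. Relative to the matched wild-type arrays the differences were −1.64 for Lsr, −1.12 for Slco1a4 and −0.65 for Abcb1a.

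The promoters of these 3 genes are shown because the genes lay lower together and the deleted receptor signals through TCF and LEF factors. The sequences are the 250 bases before the annotated start of transcription from RefSeq on GRCm38.p6, 5′ to 3′ in the sense of the gene, at chr7:30973470-30973719 on the minus strand for Lsr, chr6:141856221-141856470 on the minus strand for Slco1a4 and chr5:8566841-8567090 on the plus strand for Abcb1a. Capitals mark the SOX core word ACAAT on either strand.
Lsr: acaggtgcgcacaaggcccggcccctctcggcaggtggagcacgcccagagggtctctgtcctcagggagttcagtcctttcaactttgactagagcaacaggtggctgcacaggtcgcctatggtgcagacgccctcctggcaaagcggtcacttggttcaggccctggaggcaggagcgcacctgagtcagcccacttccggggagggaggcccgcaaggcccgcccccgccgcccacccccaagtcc
Slco1a4: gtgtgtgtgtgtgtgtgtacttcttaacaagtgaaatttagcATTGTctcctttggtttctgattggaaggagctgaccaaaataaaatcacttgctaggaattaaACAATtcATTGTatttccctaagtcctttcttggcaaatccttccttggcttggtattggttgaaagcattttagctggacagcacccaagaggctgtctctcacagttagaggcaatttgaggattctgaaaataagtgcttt
Abcb1a: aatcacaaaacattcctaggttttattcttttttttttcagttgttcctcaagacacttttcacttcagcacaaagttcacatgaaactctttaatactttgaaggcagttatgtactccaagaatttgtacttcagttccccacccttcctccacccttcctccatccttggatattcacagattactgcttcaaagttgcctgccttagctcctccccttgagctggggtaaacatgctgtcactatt
The only TCF and LEF core words searched were CTTTGAT and CTTTGTT, on both strands, and they occur in none of the 3 windows. Other forms were not searched, and CTTTGAA, for one, stands in the Abcb1a window on both strands. Of the 41 called genes 30 had such a window. Of these 30, 0 held CTTTGAT or CTTTGTT, against 6.4% of the 14368 measured genes with a window. The SOX word occurred in 7 of the 30, with 3 matches in Slco1a4, and in 21.3% of all measured genes. These counts describe the letters of the windows and say nothing about binding.

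Another 4 called genes, Itm2a, Pltp, Vtn and Paqr5, lay in the same order. Itm2a, a membrane protein enriched in brain endothelium, had 9.75, 10.00 and 9.96 in Fz4 KO, 10.80, 11.17 and 11.07 in Lrp5 KO, against 12.63, 12.79 and 12.89 in wild type. Pltp, the phospholipid transfer protein, had 11.48, 11.52 and 11.44 in Fz4 KO, 12.12, 12.63 and 12.58 in Lrp5 KO, against 13.35, 13.49 and 13.59 in wild type. In both genes the 3 groups were apart on every array, with Fz4 KO lowest (differences −1.11 ± 0.16, SE, limma adjusted p = 0.00974, and −0.96 ± 0.15, SE, adjusted p = 0.0147). Their other probe sets gave −1.18 and −1.23. Vtn, vitronectin, which pericytes make in the central nervous system, was at 10.86, 10.55 and 10.72 in Fz4 KO and at 11.59, 12.11 and 11.93 in Lrp5 KO, against 12.56, 12.70 and 12.89 in wild type. Fz4 KO again lay below Lrp5 KO throughout (−1.16 ± 0.20 (SE), limma adjusted p = 0.027), while the 16 pericyte and smooth muscle markers as a list had a median difference of 0.05 and summed to 56596 to 60425 in Fz4 KO and 53909 to 64671 in Lrp5 KO. In such bulk samples fewer cells of a type and less RNA per cell cannot be told apart. Paqr5, a membrane progestin receptor, read 7.38, 7.85 and 7.61 in Fz4 KO, 9.35, 8.66 and 8.97 in Lrp5 KO, against 10.03, 10.54 and 10.70 in wild type. Its 3 other probe sets gave −1.43, −1.29 and −1.25, close to the main value (−1.38 ± 0.26 (SE), limma adjusted p = 0.0496).

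The remaining genes lower in Fz4 KO were Pcp4l1, Uvssa, Hbb-b2 and Ifi213. Pcp4l1, a small protein with a calmodulin-binding motif, was at 10.16, 9.71 and 10.25 in Fz4 KO and at 10.99, 11.54 and 11.43 in Lrp5 KO, against 11.18, 11.58 and 11.85 in wild type. Lrp5 KO overlapped wild type here, and only Fz4 KO lay below it (−1.28 ± 0.20 (SE), limma adjusted p = 0.0147). Uvssa, a factor of transcription-coupled DNA repair, showed the same layout (−0.84 ± 0.15 (SE), limma adjusted p = 0.0329). Hbb-b2, a beta-globin of red blood cells, differed by −1.25 ± 0.23 (SE), limma adjusted p = 0.0353. Its Lrp5 KO arrays lay between Fz4 KO and wild type without overlap. The other 3 red cell markers did not pass, with Hba-a1, an alpha-globin, at −0.25, Slc4a1, the anion exchanger of red cells, at −0.44 and Alas2, which starts their heme synthesis, at −0.81. In 3 of the 4 markers the Fz4 KO arrays lay below all Lrp5 KO arrays, against 5.75% of all genes. With Hbb-b2 included, the markers summed to 364 to 656 in Fz4 KO, 988 to 1172 in Lrp5 KO and 1941 to 2873 in wild type. The part of red cells in the result was not tested. Globin genes are near copies, so the probe set may read more than 1 of them. Ifi213, of the interferon-inducible HIN-200 family, was the exception in direction, at 6.18, 6.39 and 6.31 in Fz4 KO and 7.60, 8.23 and 8.26 in Lrp5 KO, with wild type at 6.08, 6.74 and 7.18. It was Lrp5 KO that lay above wild type, by 1.38, while Fz4 KO differed from it by −0.35 (−1.74 ± 0.31 (SE), limma adjusted p = 0.0347). Genes of this family resemble each other, and which members the probe set reads is uncertain.

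**Figure D3:**
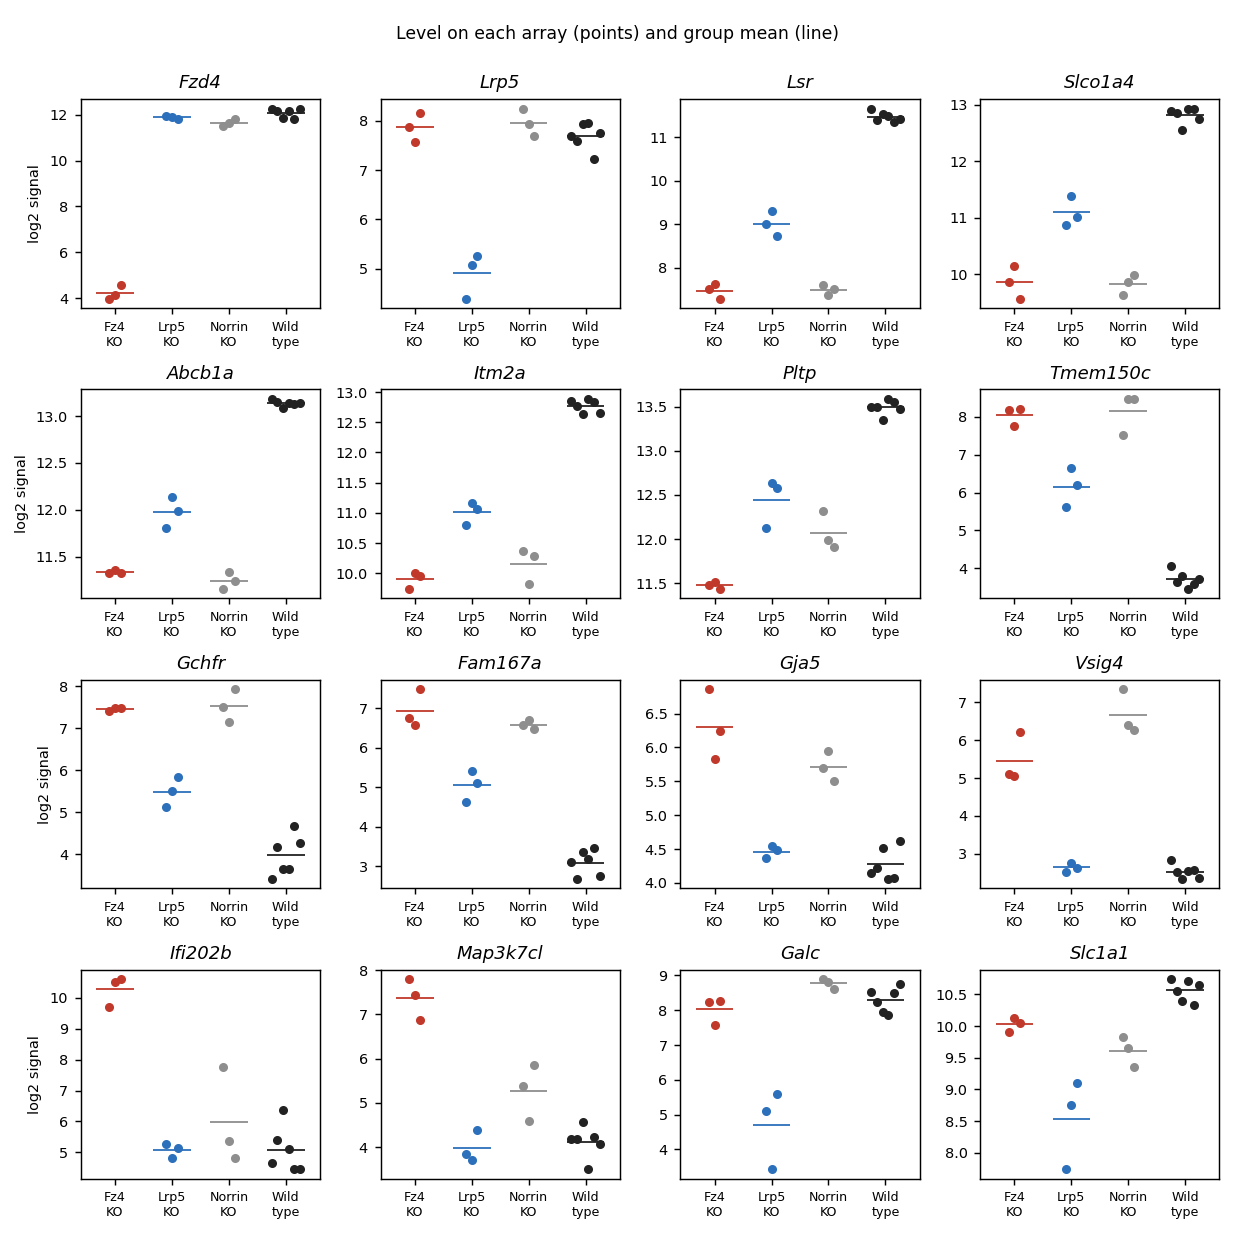
Log2 signal (y axis) of 16 genes on each array (points) with the group mean (line), for Fz4 KO, Lrp5 KO, Norrin KO and wild type (x axis). Lsr, Slco1a4, Abcb1a, Itm2a and Pltp show Lrp5 KO between Fz4 KO and wild type, Tmem150c, Gchfr and Fam167a show the mirror image, and Galc and Slc1a1 are low in Lrp5 KO.

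Another set of genes was above wild type in both mutants and higher in Fz4 KO. It held Gchfr, Tmem150c, Fam167a, Mmrn1, Srpx2 and Adam12. Gchfr, which regulates the enzyme that makes tetrahydrobiopterin, was at 7.41, 7.47 and 7.49 in Fz4 KO and 5.12, 5.51 and 5.83 in Lrp5 KO, against 3.41, 3.92 and 4.66 in wild type. Tmem150c, a membrane protein linked to mechanically gated currents, was at 8.19, 7.77 and 8.20 in Fz4 KO and 5.63, 6.66 and 6.19 in Lrp5 KO, against 3.45, 3.67 and 4.06 in wild type. In both genes the 3 groups were separate, with Fz4 KO highest (differences 1.97 ± 0.30, SE, limma adjusted p = 0.0109, and 1.89 ± 0.28, SE, adjusted p = 0.0101). The other probe set of Tmem150c gave 0.96. Fam167a read 6.75, 6.57 and 7.48 in Fz4 KO and 4.63, 5.40 and 5.12 in Lrp5 KO, with wild type at 2.68, 3.15 and 3.45, the same order (1.89 ± 0.26 (SE), limma adjusted p = 0.00774).

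Mmrn1, multimerin, a secreted protein of platelets and of lymphatic and other endothelium, had 6.09, 6.53 and 6.72 in Fz4 KO, 4.85, 5.09 and 4.58 in Lrp5 KO, against 3.41, 3.67 and 4.11 in wild type. The groups did not overlap (1.61 ± 0.21 (SE), limma adjusted p = 0.00426), but the other probe set, dim in all groups, gave −0.64. Srpx2, a secreted sushi-repeat protein of migrating endothelium, had 6.69, 6.25 and 6.37 in Fz4 KO, 4.78, 5.13 and 5.10 in Lrp5 KO, against 3.73, 4.24 and 4.45 in wild type, again in that order (1.43 ± 0.22 (SE), limma adjusted p = 0.0109). Adam12, a metalloprotease near background in wild type (3.87, 4.10 and 4.34), was far above it in both mutants, at 10.51, 10.55 and 10.44 in Fz4 KO and 9.21, 9.65 and 9.38 in Lrp5 KO. The step between the mutants (1.09 ± 0.20 (SE), limma adjusted p = 0.0353) was small beside their distances from wild type of 6.39 and 5.30, and the call ended after centring the arrays on their medians and without any 1 of 10 arrays.

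A further set passed against wild type in Fz4 KO and not in Lrp5 KO, and the direct test also passed. It counts 17 of the 28 genes higher in Fz4 KO besides Lrp5. Gja5, the arterial gap junction protein connexin 40, was at 6.86, 5.82 and 6.24 in Fz4 KO and at 4.37, 4.54 and 4.48 in Lrp5 KO, against 4.06, 4.19 and 4.62 in wild type. Lrp5 KO lay within the wild-type range and all Fz4 KO arrays above it (1.85 ± 0.23 (SE), limma adjusted p = 0.00284). None of the other 19 arterial genes passed, and the list had a median of 0.16 (0.06 against matched wild type), with Gja4, connexin 37, at 0.21 and Bmx, an arterial kinase, at −0.31 (−0.96 against matched wild type). Serpinf1, the secreted anti-angiogenic factor PEDF, was at 10.96, 10.12 and 10.91 in Fz4 KO and 8.22, 8.99 and 9.17 in Lrp5 KO, with wild type at 8.29, 8.83 and 9.26. Its other probe set gave 2.04, near the main difference (1.87 ± 0.30 (SE), limma adjusted p = 0.0147). Gdnf, a neurotrophic factor, had 5.29, 4.52 and 5.77 in Fz4 KO and 3.58, 3.69 and 3.55 in Lrp5 KO, against 2.93, 3.23 and 3.66 in wild type (1.59 ± 0.28 (SE), limma adjusted p = 0.0347). These were levels below the array medians of 5.885 to 6.038 in every group.

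Vsig4, Cd209f and Cxcl13 of this set are genes of tissue macrophages or of immune cell recruitment. Vsig4, a complement receptor of resident macrophages, read 5.12, 5.04 and 6.22 in Fz4 KO and 2.52, 2.76 and 2.64 in Lrp5 KO, with 7.35, 6.41 and 6.26 in Norrin KO and 2.34, 2.53 and 2.83 in wild type. Lrp5 KO and wild type were both near background while Fz4 KO and Norrin KO were not (2.82 ± 0.30 (SE), limma adjusted p = 0.000717). Cd209f, a C-type lectin, differed by 1.71 ± 0.32 (SE), limma adjusted p = 0.0487. Cxcl13, a B cell chemokine, had 8.87, 8.92 and 9.97 in Fz4 KO, 7.98, 6.89 and 7.63 in Lrp5 KO, against 6.76, 7.12 and 7.41 in wild type (1.76 ± 0.30 (SE), limma adjusted p = 0.0263), and its other probe set gave 3.12. On that other probe set the means were 9.97 in Fz4 KO, 6.85 in Lrp5 KO and 4.78 in wild type. There Lrp5 KO also lay above wild type, so the place of Cxcl13 in this set depends on the probe set. The 20 macrophage and microglia markers summed to 34036 to 44908 in Fz4 KO, 28753 to 38829 in Lrp5 KO and 16011 to 36442 in wild type, with overlap between the mutants. None of them passed, 19 of 20 differences were above 0 (59.1% of all genes were), and their median was 0.34 (0.32 against matched wild type). The median was 0.10 without Lrp5 KO 1, Lrp5 KO 3 and wild type 4, the 3 arrays that stood apart. That setting leaves Lrp5 KO 2 alone in its group. With the mean of the 20 macrophage and microglia markers as a covariate Vsig4 and Cxcl13 were still called. Cd209f then differed by 1.62, against 1.71 without the covariate, at a limma adjusted p of 0.114. The part of macrophages, or of a subset of them, in these differences was not tested.

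The 4 largest positive differences were those of Ifi202b, Ctse, Glycam1 and Map3k7cl, in all of which Lrp5 KO overlapped wild type. The level of Ifi202b is known to vary between inbred mouse strains. Ifi202b, a DNA-binding member of the HIN-200 family, was at 9.70, 10.53 and 10.60 in Fz4 KO and 5.28, 4.83 and 5.13 in Lrp5 KO, with Norrin KO at 7.78, 5.36 and 4.81 and wild type at 4.45, 4.87 and 6.35. The Fz4 KO arrays exceeded every other array of the series (5.20 ± 0.63 (SE), limma adjusted p = 0.00233). Ctse, the aspartic protease cathepsin E, had 6.87, 8.17 and 8.18 in Fz4 KO, 3.81, 4.27 and 3.96 in Lrp5 KO, against 2.72, 3.44 and 4.24 in wild type (3.73 ± 0.63 (SE), limma adjusted p = 0.0235), while its other probe set was at −0.06. Norrin KO, at 6.62, 5.00 and 3.34 for Ctse, lay between and reached wild type on 1 array. Glycam1, a mucin that carries ligands of L-selectin, had 9.22, 7.41 and 9.59 in Fz4 KO, 5.01, 5.28 and 5.14 in Lrp5 KO, with 8.34, 9.80 and 9.93 in Norrin KO and 4.60, 5.80 and 6.17 in wild type. Fz4 KO and Norrin KO were the high groups for Glycam1 (3.60 ± 0.57 (SE), limma adjusted p = 0.0147). Map3k7cl read 7.79, 7.44 and 6.87 in Fz4 KO and 3.85, 3.71 and 4.38 in Lrp5 KO, with wild type at 3.50, 4.18 and 4.56 (3.38 ± 0.33 (SE), limma adjusted p = 0.000342).

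Serpina1b, an alpha-1-antitrypsin, had 6.74, 4.33 and 6.86 in Fz4 KO, 2.55, 2.62 and 2.85 in Lrp5 KO, against 2.64, 2.71 and 3.05 in wild type. Fz4 KO 2 was well below the other 2 Fz4 KO arrays, yet above all Lrp5 KO arrays (3.30 ± 0.49 (SE), limma adjusted p = 0.0101). The other probe set gave 3.74, and Serpina1 genes are near copies that probes may not separate. Dpys, an enzyme of pyrimidine breakdown, passed narrowly (2.86 ± 0.54 (SE), limma adjusted p = 0.0496), with its other probe sets at 0.06 and −0.17. Dyrk3, a kinase, differed by 2.22 ± 0.40 (SE), limma adjusted p = 0.0353. The rest of this set were BC018473 (1.89), Stk35 (1.68), a kinase, Polr3gl (1.64), a subunit of RNA polymerase III, and Rbm44 (0.95), an RNA-binding protein, each with Lrp5 KO not past the test against wild type. Their adjusted p values lay between 0.0101 for BC018473 and 0.0473 for Rbm44 in limma.

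In 3 genes higher in Fz4 KO it was Lrp5 KO that departed from wild type. Galc, the lysosomal galactosylceramidase, was at 8.24, 7.58 and 8.26 in Fz4 KO and 5.10, 3.43 and 5.58 in Lrp5 KO, against 7.87, 8.36 and 8.75 in wild type. Fz4 KO overlapped wild type and Lrp5 KO lay far below both (3.32 ± 0.42 (SE), limma adjusted p = 0.00284), but the other 2 probe sets of Galc, at 0.28 and 0.11, did not share the difference. Slc1a1, a glutamate and cysteine carrier, read 9.91, 10.13 and 10.05 in Fz4 KO, 7.74, 8.75 and 9.09 in Lrp5 KO, against 10.33, 10.60 and 10.74 in wild type. All 3 probe sets gave a like difference (1.50 ± 0.26 (SE), limma adjusted p = 0.0329, and 1.57 and 1.15 for the others), with Fz4 KO at −0.53 relative to wild type and not past the test. Cdkn2b, the cell cycle inhibitor p15, had 8.15, 7.35 and 8.33 in Fz4 KO, 6.71, 6.74 and 6.42 in Lrp5 KO, against 7.74, 7.76 and 8.12 in wild type, with Lrp5 KO alone past the test against wild type (1.32 ± 0.22 (SE), limma adjusted p = 0.0235). Ctr9, a subunit of the PAF1 transcription complex, was below wild type in both mutants and further in Lrp5 KO, at 9.14, 7.93 and 9.01 in Fz4 KO, 6.37, 6.95 and 6.60 in Lrp5 KO, against 9.42, 9.69 and 10.27 in wild type (2.06 ± 0.30 (SE), limma adjusted p = 0.0101). Of its 4 other probe sets 1 gave 0.81, and the rest lay between −0.07 and 0.20. Wdfy1, an endosomal protein, was the only called gene past the test on opposite sides of wild type, above it in Fz4 KO (0.81) and below it in Lrp5 KO (−0.68), with 9.62, 9.77 and 9.51 in Fz4 KO, 7.95, 8.14 and 8.34 in Lrp5 KO, against 8.57, 8.79 and 9.22 in wild type (1.49 ± 0.17 (SE), limma adjusted p = 0.00171). Its other probe sets gave 1.14, 1.16, 0.27 and 0.12. At the first of these the wild-type mean (8.66) again lay between Fz4 KO (9.43) and Lrp5 KO (8.28). At the second both mutants (8.47 and 7.31) lay above wild type (7.02), so the opposite sides depend on the probe set.

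The 39 called genes besides the targets were each read by their probe set of highest mean. Of these, 15 had both mutants past the test on the same side of wild type, and 19 had Fz4 KO past it and Lrp5 KO not. Another 4 had Lrp5 KO past it and Fz4 KO not, and 1, Wdfy1, had them on opposite sides. Fz4 KO was the mutant farther from wild type, on the same side of it, in 28 of the 39, which was so for 41.7% of all genes. Of the 11 genes lower in Fz4 KO, 10 had this place, and in the other, Ifi213, wild type lay between the mutants and nearer to Fz4 KO. The Norrin KO mean was nearer to Fz4 KO than to Lrp5 KO in 26 of 39 (66.7%), close to the 63.3% of all genes. The mutants share the wild-type arrays, and these places describe the 2 means beside each other. The naming rule covered 25 of the 39 genes, and the other 14, Tmem150c, BC018473, Fam167a, Serpinf1, Cxcl13, Cd209f, Stk35, Polr3gl, Mmrn1, Gdnf, Wdfy1, Srpx2, Cdkn2b and Rbm44, were named after their values were seen.

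**Figure D4:**
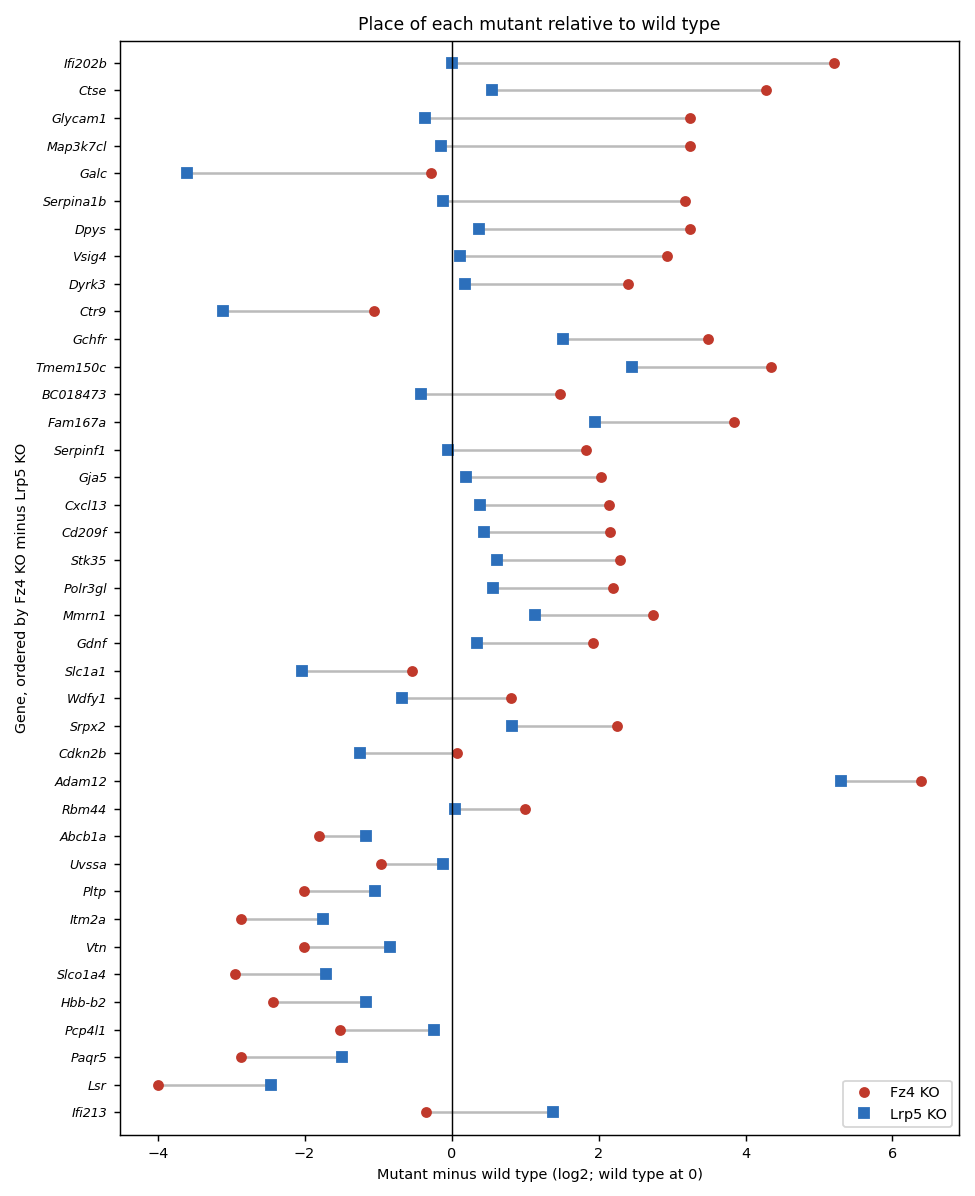
Log2 difference from wild type (x axis, wild type at 0) of Fz4 KO (red circles) and Lrp5 KO (blue squares) for the 39 called genes besides the targets, ordered by the difference between the mutants (y axis). Circles lie farther from 0 than squares in 28 genes on the same side of wild type, and Galc, Ctr9, Slc1a1, Cdkn2b and Ifi213 are led by Lrp5 KO.

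Few genes of the barrier and pathway lists passed between the mutants. Of 24 barrier carriers, 1 passed higher (Slc1a1) and 2 lower (Slco1a4 and Abcb1a), with a median of −0.11 against 0.06 over all genes, and 17 differences were below 0. Over all genes 0.159% passed higher and 0.066% lower, and 59.1% of differences were above 0. The list median was −0.05 against matched wild type and −0.36 without the 3 arrays that stood apart, which leaves Lrp5 KO 2 alone in its group. In 7 of the 24 all Fz4 KO arrays lay below all Lrp5 KO arrays and in 2 above, against 5.75% and 10.8% of all genes. Against wild type 23 of the 24 passed lower in Fz4 KO (median −1.91) and 23 in Lrp5 KO (median −1.84), beside 6.08% and 7.27% of all genes. The 95% interval between the mutants was within 2-fold for 15. Mfsd2a, the lipid carrier that restrains transcytosis, differed by −0.12 (−0.68 to 0.45), and Slc2a1, the glucose carrier, by −0.10 (−0.39 to 0.19). The glutamine carrier Slc38a5 was at 2.71, 2.88 and 3.19 in Fz4 KO and 3.24, 4.63 and 3.36 in Lrp5 KO without passing the test (adjusted p = 0.437). Slco2b1, another organic anion carrier, was at −0.76 (adjusted p = 0.162), and Lrp8, an apolipoprotein E receptor, at 0.79 (adjusted p = 0.326), neither past the test.

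None of the 18 target genes of beta-catenin passed between the mutants, and their median difference was 0.08 (0.02 against matched wild type). Against wild type 10 passed lower and 3 higher in Fz4 KO, and 11 lower and 2 higher in Lrp5 KO. The shares over all genes were 6.08% and 10.7% in Fz4 KO, and 7.27% and 5.63% in Lrp5 KO. Axin2, the feedback inhibitor of the pathway, differed by −0.11 (−0.82 to 0.61), Apcdd1, a Wnt antagonist of retinal vessels, by 0.23 (−0.28 to 0.73), and Notum, which inactivates Wnt ligands, by 0.12 (−0.27 to 0.52). These intervals lay within 2-fold, whereas those of Lgr5, a receptor of R-spondins (−2.74 to −0.14), and Nkd2, an inhibitor of Dishevelled (0.15 to 1.80), did not. Against matched wild type Nkd2 was at 0.04 and Lgr5 at −1.51. Among 25 signal transducers none passed and 23 intervals were within 2-fold, Ctnnb1, beta-catenin itself, at −0.05 (−0.31 to 0.21). Of 20 receptors and coreceptors, only the targeted genes passed. Fzd6, another Frizzled, was at −0.65 (adjusted p = 0.311) and Reck, a partner of the brain Wnt7 receptor, at −0.28 (−0.69 to 0.12).

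Junction genes gave 1 call of 19, Lsr, with a median of 0.01, while 0.225% of all genes were called. Ocln, occludin, was at 7.95, 8.19 and 7.19 in Fz4 KO and 8.65, 9.12 and 8.87 in Lrp5 KO without passing the test (−1.11, adjusted p = 0.363), and Cldn5, the main claudin of barrier vessels, differed by 0.09 (−0.22 to 0.41). All 10 genes of fenestrae and caveolae had intervals within 2-fold. Plvap, which forms the diaphragms of fenestrae, was at 12.51, 12.48 and 12.59 in Fz4 KO and 12.28, 12.31 and 12.17 in Lrp5 KO, against 4.69, 5.34 and 6.01 in wild type. Both mutants were far above wild type. The difference between them did not pass (0.28, −0.32 to 0.87), and its sign turned against matched wild type (−0.45). Of 14 genes of peripheral capillaries none passed (median 0.23), with Fabp4, a fatty acid binding protein, at 1.53 (adjusted p = 0.197) and Gpihbp1, the anchor of lipoprotein lipase, at 0.83 (adjusted p = 0.368).

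**Figure D5:**
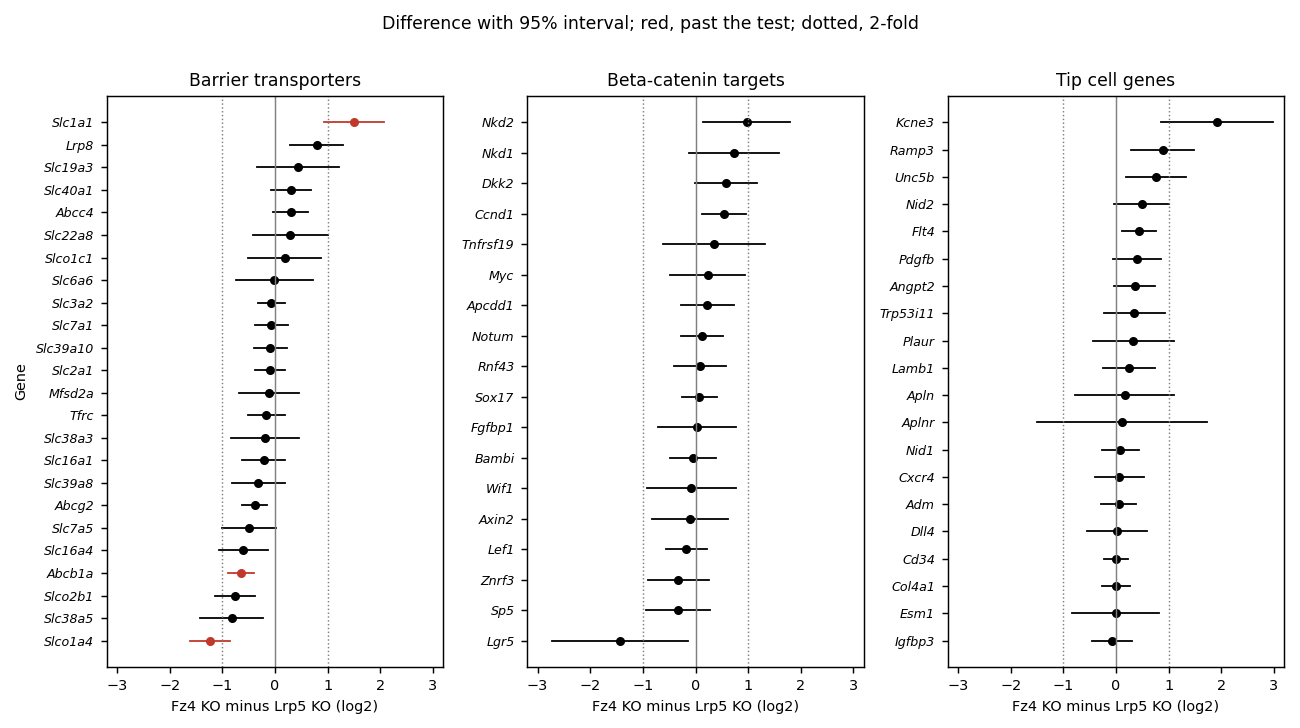
Difference, Fz4 KO minus Lrp5 KO on the log2 scale (x axis), with its 95% interval for the barrier transporters, the beta-catenin targets and the tip cell genes (y axes). Dotted lines mark 2-fold, and Slc1a1, Abcb1a and Slco1a4 (red) are the members past the test.

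Tip cell genes, which mark sprouting endothelium, had 0 of 20 past the test and 17 differences above 0 (median 0.21, 0.31 against matched wild type). Without the 3 arrays that stood apart, which leaves Lrp5 KO 2 alone in its group, the median was 0.08. Of all genes 59.1% had a difference above 0. Kcne3, a potassium channel subunit, was at 11.25, 11.43 and 10.60 in Fz4 KO and 8.36, 9.45 and 9.72 in Lrp5 KO without passing the test (1.92, adjusted p = 0.226), while Esm1, a secreted proteoglycan, differed by −0.01 (−0.83 to 0.82) and by 0.48 against matched wild type. Cell cycle genes had 0 of 21 past the test and a median of 0.29, which was 0.04 against matched wild type. Against wild type 12 of them passed higher in Fz4 KO and 8 in Lrp5 KO, beside 10.7% and 5.63% of all genes. Between the mutants Ccnb2, a mitotic cyclin, was at 0.98 (limma adjusted p = 0.422) and at 0.22 against matched wild type. Of 25 matrix genes 1 passed, Adam12 (0.225% of all genes passed), and the median was 0.14. No member passed among 16 genes of the VEGF and Tie systems (median 0.17), 26 of TGF-beta signalling (0.04), 9 of veins (−0.28), 17 of inflammation (−0.01), 19 of the interferon response (0.07) or 14 of antigen presentation (−0.02). The lists of 19 immediate early genes (−0.02), 13 heat shock genes (−0.09), 18 hypoxia genes (0.01) and 22 respiratory chain genes (0.11) had none past the test, and all intervals of the immediate early and respiratory chain genes were within 2-fold. Against matched wild type the medians were 0.09 for the VEGF and Tie systems, −0.22 for inflammation, −0.20 for the interferon response and 0.02 for the respiratory chain, beside 0.03 over all genes.

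No marker of rods, cones, pigment epithelium or glia passed. All 12 rod markers and all 12 markers of pigment epithelium had differences below 0, with medians of −0.46 and −0.70, as did 7 of 8 cone markers (median −0.67). Over all genes 59.1% of differences were above 0. The rod sums were 1545 to 3178 in Fz4 KO, 2252 to 4684 in Lrp5 KO and 1115 to 2022 in wild type, and those of pigment epithelium 513 to 795 in Fz4 KO, 815 to 1852 in Lrp5 KO and 745 to 2413 in wild type. With the rod mean as a covariate 28 genes were called higher and 11 lower. Of these 39 genes 30 were among the 41 reported. The calls of Abcb1a, Vtn, Cxcl13, Slc1a1, Hbb-b2, Polr3gl, Dyrk3, Adam12, Cd209f, Dpys and Rbm44 ended. The 13 glial genes had a median of −0.12 (−0.34 against matched wild type). The glial filament gene Gfap was at 9.21, 7.96 and 9.12 in Fz4 KO and 6.62, 7.72 and 6.74 in Lrp5 KO (1.74, adjusted p = 0.139), and S100b, a calcium-binding protein of astrocytes, at 1.37 (adjusted p = 0.168), both without overlap of the arrays. Most glial genes went the other way, with 9 of 13 below 0 and Rlbp1 lowest at −1.31 (limma adjusted p = 0.395). The arrays did not overlap in 2 of the 13 higher and 3 lower, against 10.8% and 5.75% of all genes. None of 16 neuronal, 14 blood cell and 7 fibroblast markers passed (medians 0.06, −0.16 and 0.12).

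Because the mice were of a mixed background, positions were also counted. Chromosome 1 held 7 of the 39 called genes (Ctse, Dyrk3, Ifi202b, Ifi213, Pcp4l1, Rbm44 and Wdfy1) among its 1066 measured genes, and chromosomes 5 and 7 held 4 each of 1131 and 1420. Chromosomes 2, 11, 15 and X held 3 each of 1407, 1452, 729 and 618, those on X being Itm2a, Srpx2 and Vsig4. Over all chromosomes it was 39 of 18194 genes, and whether any chromosome held more than its share was not tested. With Xist and Eif2s3y as covariates, which kept 6 of the 41 calls, Vsig4 was still called and Itm2a and Srpx2 were not. Of 100 measured neighbours of Fzd4 0 passed and 9% had an unadjusted limma p under 0.05. Of 56 neighbours of Lrp5, only 6 of them before it, 0 passed and 3.57% had one, against 9.17% of all genes. With 0.225% of all genes called, so few neighbours would seldom hold a call in any case, so the 0 says little. Farther away, chromosome 7, which carries Fzd4, held the called genes Adam12, Ctr9, Hbb-b2 and Lsr. Chromosome 19, which carries Lrp5, held Slc1a1. The part of strain alleles in the calls was not tested.

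The direction of the 39 differences was the same relative to the matched wild-type arrays. All 39 had an unadjusted limma p under 0.05 there, with differences of 0.822 (Hbb-b2) to 1.23 (Gchfr) times the main ones. The arrays compared are those that made the calls, so this is no independent repeat. The same holds for the plotted pair Fz4 KO 3 minus Lrp5 KO 3, whose sign the lack of overlap fixes. With Xist and Eif2s3y as covariates 4 genes were called higher and 2 lower. When arrays were left out in turn, the fit called 11 genes without Fz4 KO 3 (11 of them among the 41), 18 without Lrp5 KO 3 (18), 20 without Fz4 KO 1 (18), 24 without Lrp5 KO 1 (22), 26 without Lrp5 KO 2 (20) and 38 without Fz4 KO 2 (27). The 11 genes called whichever array was left out were Fzd4, Lrp5, Lsr, Map3k7cl, Galc, Fam167a, Vsig4, Wdfy1, Gja5, Ifi202b and Mmrn1, and none of the 41 differences changed sign. The other 30 each lost their call without at least 1 array, with a highest limma adjusted p between 0.0538 for Itm2a (without Fz4 KO 1, Fz4 KO 3 or Lrp5 KO 3) and 0.275 for Dpys. When a gene's probe sets were averaged, the calls of Ctr9, Ctse, Mmrn1, Stk35, Ifi213, Hbb-b2, Uvssa, Adam12, Paqr5 and Rbm44 ended.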

How the data were processed

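Expression was measured on Affymetrix mouse arrays of 15 pools of purified retinal endothelial RNA: 3 Fz4 KO, 3 Lrp5 KO, 3 Norrin KO and 6 wild type, grouped by their titles. Per the submitters' processing notes, the authors used RMA, and the deposited values are on its log2 scale. The method corrects background, normalizes arrays by quantiles and summarizes probe sets. RMA's version and settings, and whether all arrays were normalized together, are unknown here. RMA pulls low signals together, so differences of dim genes are understated, and precision is limited by how few arrays each group has.

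Of 45101 probe sets 34958 had 1 gene symbol, 932 several and 9211 none in the platform annotation. The probe set of highest mean stood for each of 18194 genes, 9012 of which had more than 1. Array medians were 5.885 to 6.038 and no pair of arrays held the same values. Lower quartiles were 3.897 to 4.294 and upper quartiles 8.07 to 8.457. The quartiles lay closest together on wild type 4 (4.294 and 8.07) and Lrp5 KO 1 (4.249 and 8.11). limma 3.58.1 in R 4.3.3 fitted 4 group means to all 15 arrays (lmFit, eBayes, 2-sided), with Benjamini-Hochberg adjustment over all genes, a threshold of 0.05 and 95% intervals. The fit was tested on simulated data with known changes in 18194 genes. The alternatives were other normalizations, filters, probe set rules, moderations, arrays, covariates and blocks, and leaving out each array.

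The members and gene lists were chosen with earlier results of these data known. Named by rule were the targeted genes and Ndp, the 12 called genes of largest difference each way whose arrays do not overlap, list members and called neighbours of the targeted genes. The 14 other called genes were named after their values were seen.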

Additional observations from a re-analysis of the deposited data

Results flagged for a closer look

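Among the called genes, Cd209f was the only one with a wild-type array far from the others. Its 6 wild-type log2 signals were 3.68, 3.55, 3.72, 4.01, 3.67 and 3.59, and the gap below the highest, wild type 4, was 0.631 of their range, just past Dixon's 95% limit for 6 samples. Chance passes this limit in about 1 in 20 groups. All 6 values lay near background and below the Fz4 KO arrays, at 5.29, 6.55 and 5.73. Ndp, which was not called, was also highest on wild type 4, at 4.81 against 4.28 to 4.47 on the other wild-type arrays.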

How the results depend on the processing

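No difference of a called gene changed sign under any alternative, but the number of calls (29 higher and 12 lower in Fz4 KO) depended on how the spread was estimated. Over 1250 combinations of a called gene and a setting, 802 stayed past the threshold and 448 did not, and Fzd4 alone passed in every setting. In limma, quantile normalization again gave 28 higher and 22 lower, only genes above the median gene 10 and 17, and trended robust moderation 33 and 19. The 6 arrays alone gave 4 and 1, wild type matched by spike controls 1 and 2, Xist and Eif2s3y as covariates 4 and 2, and macrophage markers as a covariate 22 and 7. Without the 3 arrays that stood apart (Lrp5 KO 1, Lrp5 KO 3 and wild type 4) the counts were 4 and 5. Leaving out each array gave 9 to 37 higher and 2 to 17 lower. The cause of these shifts was not tested, apart from the smaller number of arrays where arrays were left out. Median centring, averaged probe sets, no cross-hybridizing probe sets, a 2-fold minimum and the rod covariate left both counts within 1.5 times of those reported. The genes were not all the same. In that order 39, 31, 37, 37 and 30 of the 41 reported genes were still called, with 39 of them tested without cross-hybridizing probe sets. Chosen after seeing the data, matched pairs as blocks gave 1 (Ifi202b) and 1 (Fzd4), no longer Lrp5 or Lsr, and a fit without Norrin KO arrays 32 and 14. With the replicate number as a block the counts were 15 and 4, 15 of these 19 genes being among the 41. The numbers do not pair the arrays: same-numbered deviations correlated at 0.16, −0.24 and 0.10. The limits are 3 pools per mutant, of unknown day and sex ratio, and dim genes near background, where RMA leaves little range.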
